A study of Homo sapiens with 12 samples.

Results

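The matrix metalloproteinase (MMP) genes MMP1, MMP3, MMP7, MMP8, MMP10, MMP12 and MMP13, which lie side by side on chromosome 11, were followed in MDA-MB-231 cells together with MMP2, MMP9 and MMP14, which lie elsewhere. These 10 genes were picked by name from the 60558 gene identifiers that both expression tables hold, and all 10 were found. They were chosen because of the measured fold changes of MMP3 and MMP1 in the same knockdown experiments that are described here. The levels and fold changes of the 10 genes are therefore given as a description, without a test.

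MDA-MB-231 is an established human triple-negative breast cancer cell line. One experiment compared NONO-knockdown cells (NONO KD) with negative control cells (NC), and a second compared PKM2-knockdown cells (PKM2 KD) with NC cells of its own, with 3 libraries in each of the 4 groups and the NC cells labelled as wild type. NONO is a nuclear RNA- and DNA-binding protein and PKM2 is a splice form of the glycolytic enzyme pyruvate kinase, encoded by PKM; the study sequenced both knockdowns to find genes that the pair regulates in common. Which siRNA or shRNA made the sequenced cells, and whether the 3 libraries of a group came from separate cultures, is not given in the sources used here, so P values measure only the spread between these libraries, which may be technical.

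MMPs are zinc-dependent endopeptidases that cleave proteins of the extracellular matrix and of the cell surface. Most are secreted as inactive proenzymes, some are held at the membrane, and tissue inhibitors of metalloproteinases (TIMPs) block the active enzymes. MMP1, MMP8 and MMP13 are collagenases that cut fibrillar collagen, MMP3 and MMP10 are stromelysins with a broad range of substrates, MMP2 and MMP9 are gelatinases, MMP7 is matrilysin, MMP12 is macrophage elastase and MMP14 is a membrane-bound enzyme that activates proMMP2. In breast cancer, MMP1 and MMP14 are known for their part in invasion and metastasis.

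The 10 enzymes share a catalytic site in which 3 histidines hold the zinc ion. The 33 bases that code for it are shown for the 3 genes that were expressed, and for MMP10 as the nearest relative of MMP3, because they show how far reads of these genes can be told apart. The capitals mark the 3 histidine codons, and the letters were read from the GENCODE 29 transcripts (GRCh38), 5′ to 3′ on the coding strand.
MMP1, chr11:102795549-102795581, minus strand, exon 5: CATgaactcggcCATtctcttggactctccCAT
MMP3, chr11:102840535-102840567, minus strand, exon 5: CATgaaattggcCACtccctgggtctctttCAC
MMP10, chr11:102776718-102776750, minus strand, exon 5: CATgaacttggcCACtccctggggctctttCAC
MMP14, chr14:22843283-22843315, plus strand, exon 5: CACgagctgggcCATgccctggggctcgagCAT

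MMP3 and MMP10 differed at 2 of these 33 bases, MMP1 and MMP3 at 9, MMP1 and MMP14 at 10, and MMP3 and MMP14 at 11. Over the coding bases that aligned, with gaps left out, MMP3 was 85.0% identical to MMP10 (1431 bases) and 67.5% identical to MMP1 (1375 bases). MMP14 was 62.8% identical to MMP1 (1348 bases) and 59.8% to MMP3 (1379 bases). With 582 residues against 469 in MMP1 and 477 in MMP3, MMP14 is longer, so part of its coding sequence was not counted. Of all 50-base words in the MMP3 transcripts, 2.88% also occurred in MMP10. Of those of MMP1, 2.92% occurred in WTAPP1, a pseudogene transcribed from the opposite strand, and those of MMP14 occurred in no other gene. WTAPP1 shares 150 exon bases with MMP1 and 32 with MMP3, so reads of the overlaps cannot be told apart without strand information. WTAPP1 itself had a level of at most 0.02 TPM (transcripts per 1000000 transcripts, a level that allows for gene length) in every library, and MMP10 had at most 8 counts.

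On GRCh38 the 7 members on chromosome 11 span positions 102520508 to 102955734, that is 435.2 kb with 9 MMP genes, and all 7 are on the minus strand. MMP1 (102789920 to 102798160) and MMP3 (102835801 to 102843803) lie 37640 bases apart. MMP14 is on chromosome 14 (22836557 to 22849027, plus strand), MMP2 on chromosome 16 and MMP9 on chromosome 20. The processing notes of the submitters name hg19, another build, so these positions serve only to locate the genes.

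The libraries held 19861762 to 28455268 estimated counts, so that 3 counts, the limit that a count of 0 allows, were worth 0.105 to 0.151 CPM (counts per 1000000 counts of a library). These limits cover counting error only. As its label states, NONO fell by 2.57 ± 0.05 on the log2 scale (standard error) in NONO KD cells (edgeR adjusted P = 1.17e-10). PKM fell by 3.32 ± 0.05 in PKM2 KD cells (edgeR adjusted P = 7.03e-12). The label names PKM2, whereas the PKM value counts the splice forms of the gene together. In the opposite experiment NONO was 0.30 and PKM 0.26 higher. The 5 markers of this line (VIM, CD44, EGFR, AXL and ZEB1) summed to 3932 to 5193 TPM. Of 5 markers that it should lack or hardly express, ESR1, PGR and CDH1 stayed below 1 TPM on average. The other 2 did not: ERBB2 had group means of 14.3 to 30.8 TPM and EPCAM of 1.64 to 3.32 TPM. Fibroblast markers summed to 2.17 to 9.96 TPM, all but COL1A1 being near 0. Leukocyte markers summed to 123 to 128 TPM in NC and 150 to 154 TPM in NONO KD cells, and to 134 to 137 TPM in NC and 53.7 to 55.7 TPM in PKM2 KD cells. Nearly all of it was CD68, a lysosomal protein that tumour cells also make. The part of these markers in the results below was not tested. NC replicate 1 of the NONO experiment and PKM2 KD replicate 3 stood somewhat apart from their replicates, and results without a library are given where a call named here was lost.

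Of the 10 members, 3 (MMP1, MMP3 and MMP14) passed the low-count filter in both experiments and 7 passed in neither. Among the 7 members on chromosome 11, 2 were measurable. MMP7, MMP8 and MMP12 were at 0 counts in all 12 libraries. MMP13 had 1 and 3 counts in replicates 2 and 3 of the NC cells of the PKM2 experiment and 0 elsewhere. MMP10 had 1, 0 and 2 counts in NC and 0, 3 and 0 in NONO KD cells, and 0, 3 and 1 in NC and 8, 3 and 0 in PKM2 KD cells. The groups of MMP10 overlapped in both experiments, so MMP10, the gene most similar to MMP3 in sequence, did not rise detectably at this depth.

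MMP3, stromelysin-1, had the largest fold change of the members. Its level was 4.51, 3.05 and 2.97 TPM in the NC libraries and 23.8, 16.2 and 14.4 TPM in the NONO KD libraries, from 73 to 105 counts and 339 to 576 counts. In the PKM2 experiment it was 2.24, 1.63 and 1.17 TPM in NC and 26.3, 20.5 and 22.6 TPM in PKM2 KD cells, from 38 to 75 and 581 to 747 counts. Every KD library was above every NC library in both experiments, and within each group replicate 1 was the highest. The log2 fold change was 2.43 ± 0.21 (standard error) after NONO knockdown, a 5.38-fold higher level, and 3.89 ± 0.17 after PKM2 knockdown, a 14.8-fold higher level. This was the 7th highest fold change of 14832 genes tested after NONO knockdown and the 10th of 15524 after PKM2 knockdown. Leaving out each library in turn gave log2 fold changes of 2.18 to 2.66 and 3.68 to 4.17.

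MMP1, interstitial collagenase, was the more abundant of the pair. Its level was 48.0, 51.0 and 48.3 TPM in NC and 139, 137 and 132 TPM in NONO KD cells. In the PKM2 experiment it was 25.2, 28.5 and 25.3 TPM in NC and 156, 147 and 145 TPM in PKM2 KD cells. These values rest on 876 to 1358 counts per NC library and 3415 to 5205 per KD library, and no KD library overlapped with an NC library. The log2 fold change was 1.53 ± 0.05 (standard error, 2.89-fold) after NONO knockdown and 2.63 ± 0.06 (6.19-fold) after PKM2 knockdown, ranked 33rd and 64th among the genes tested. Leave-one-out values were 1.51 to 1.56 and 2.60 to 2.68.

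MMP14, the membrane-bound enzyme, moved by less and in opposite directions. Its level was 151, 186 and 178 TPM in NC and 236, 238 and 228 TPM in NONO KD cells. In the PKM2 experiment it was 112, 115 and 124 TPM in NC and 81.6, 89.1 and 82.0 TPM in PKM2 KD cells. All 3 NONO KD libraries were above their NC libraries, and all 3 PKM2 KD libraries were below theirs. The log2 fold change was 0.59 ± 0.06 (standard error) after NONO knockdown, and after PKM2 knockdown MMP14 was lower by a log2 fold change of -0.27 ± 0.05. The second value depended on the scale and on GC content. It was -0.47 on log2(TPM + 1), and -0.05 once the trend of fold change with transcript GC content and gene length was subtracted, whereas the trend left 2.54 for MMP1 and 3.85 for MMP3. The MMP14 transcript holds 58.9% GC, against 43.4% for MMP1 and 44.8% for MMP3.

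**Figure D1:**
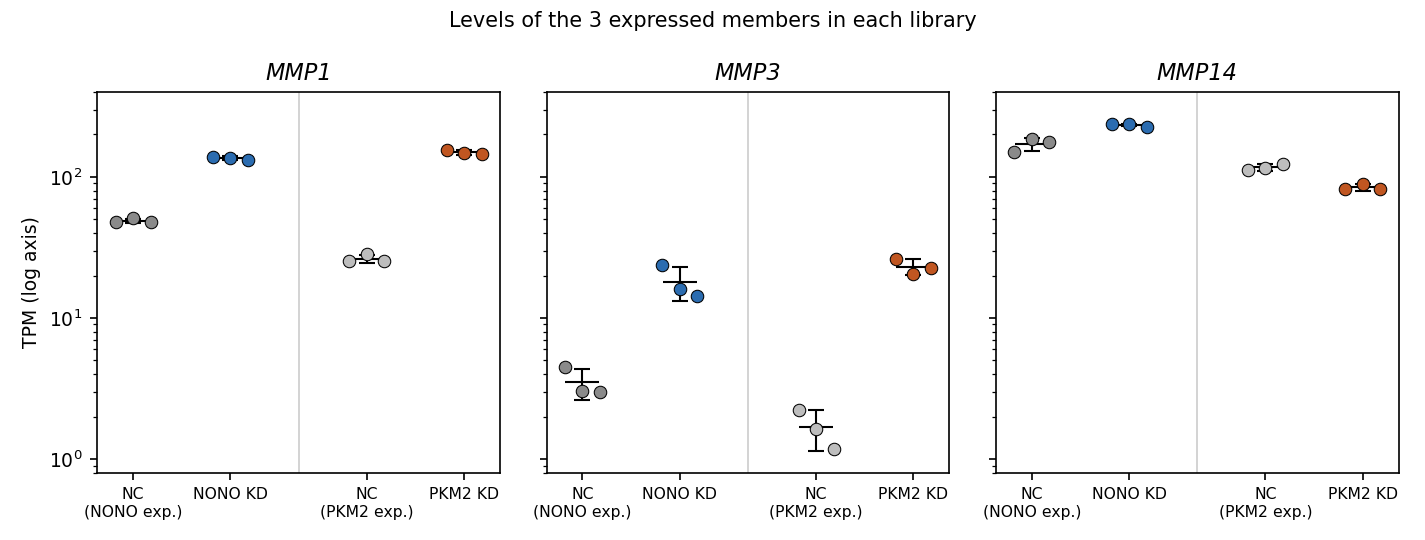
Level in TPM (log axis) of MMP1, MMP3 and MMP14 in each library (points), with the mean and SD of each group of 3 (horizontal mark and bar). The NC and KD libraries of each gene do not overlap, MMP1 and MMP3 are higher in both knockdowns, and MMP14 is higher in NONO KD and lower in PKM2 KD cells.

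MMP2 and MMP9, the gelatinases, were not measurable. MMP2 had 1 count, in NONO KD replicate 2, over all 12 libraries. MMP9 had 10 counts in all, at most 4 in a library and 0 in 7 libraries. Of the 3 comparison genes only MMP14 could therefore be set against the chromosome 11 members. The median log2 fold change of the 2 measurable chromosome 11 members was 1.98 after NONO knockdown and 3.26 after PKM2 knockdown, against 0.59 and -0.27 for MMP14 and -0.01 over all genes tested in either experiment. Without the filter, which admits MMP10 and, with PKM2 knockdown, MMP13 at their few counts, the chromosome 11 median was 1.53 and 2.09.

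To compare libraries, CPM were scaled by TMM, the normalisation of edgeR. These CPM of the KD and NC libraries did not overlap for any of the 3 measurable members in either experiment. Over all genes tested the libraries did not overlap, in either direction, for 46.1% with NONO knockdown and for 71.9% with PKM2 knockdown. Since the members were chosen on these contrasts, nothing is read from this.

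The order of levels changed in PKM2 KD cells. In NC cells of both experiments and in NONO KD cells MMP14 was highest, followed by MMP1 and then MMP3, and no libraries of neighbouring genes overlapped. In PKM2 KD cells MMP1 (149 ± 6 TPM, SD, n = 3) was above MMP14 (84.3 ± 4.2 TPM) and MMP3 (23.1 ± 2.9 TPM). The other 7 members, at 0 to 0.48 TPM, could not be put in order. The ratio of MMP1 to MMP14 TPM was 0.29 ± 0.03 in NC and 0.58 ± 0.01 in NONO KD cells, and 0.23 ± 0.02 in NC and 1.78 ± 0.13 in PKM2 KD cells. The ratio of MMP1 to MMP3 TPM moved the other way, from 14.5 ± 3.4 to 7.83 ± 1.75 in the NONO experiment and from 16.8 ± 5.2 to 6.50 ± 0.60 in the PKM2 experiment.

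Summed over the 10 members, the level was 204 to 240 TPM in NC and 374 to 399 TPM in NONO KD cells, and 139 to 150 TPM in NC and 250 to 265 TPM in PKM2 KD cells. MMP14 made up 76.4% ± 1.9 of the sum in NC and 60.3% ± 1.0 in NONO KD cells, and 80.5% ± 1.6 in NC and 32.8% ± 1.9 in PKM2 KD cells. MMP1 made up 58.1% ± 0.9 of the sum and MMP3 8.01% to 9.94% of it in PKM2 KD cells. In bulk RNA, more cells that express a gene and more RNA per cell cannot be told apart.

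**Figure D2:**
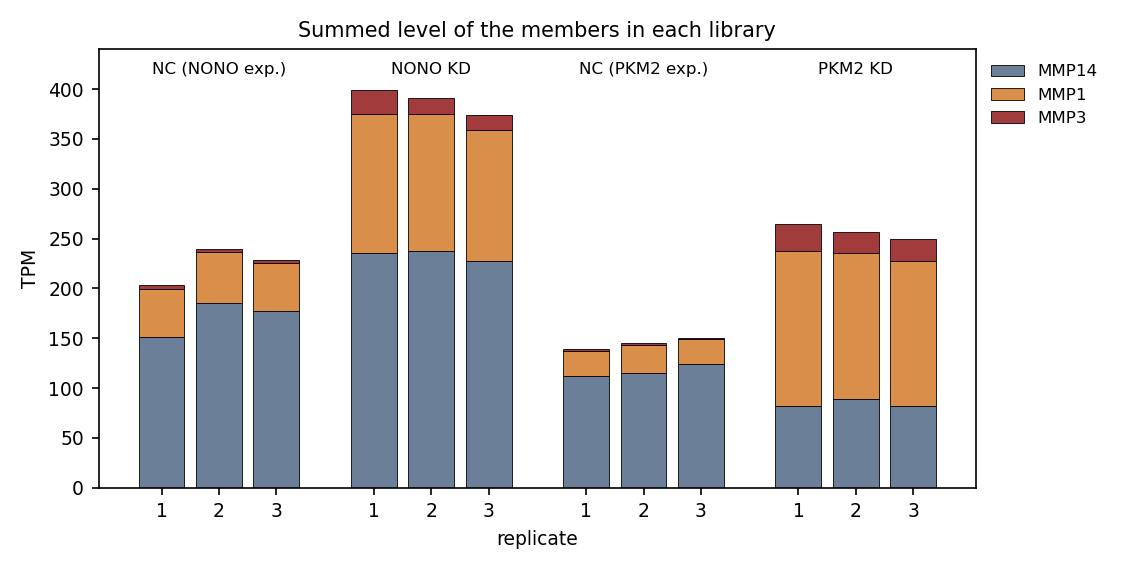
Summed TPM of the members in each library (1 bar per library, stacked by gene; the other 7 members add less than 1 TPM and are not drawn). The bars of the KD groups are taller than those of their NC groups, and MMP1 takes the largest share only in the 3 PKM2 KD libraries.

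The tables of the 2 experiments were normalised separately, so their levels can be set side by side only with that limit. The NC level of MMP1 was 49.1 ± 1.7 TPM in the NONO experiment and 26.3 ± 1.9 TPM in the PKM2 experiment, while the KD levels were 136 ± 4 and 149 ± 6 TPM. For MMP3 the NC levels were 3.51 ± 0.87 and 1.68 ± 0.54 TPM and the KD levels 18.1 ± 5.0 and 23.1 ± 2.9 TPM. The log2 fold change after PKM2 knockdown exceeded that after NONO knockdown by 1.09 ± 0.07 (standard error) for MMP1 and by 1.45 ± 0.32 for MMP3, and for MMP14 the difference was -0.87 ± 0.07. A difference of this kind was called, in either direction, for 53.1% of all genes tested. The NC mean of the NONO experiment was 1.86 times that of the PKM2 experiment for MMP1 and 2.09 times for MMP3, whereas the KD mean of the PKM2 experiment was 1.10 times and 1.28 times that of the NONO experiment. As a ratio, the NC levels of MMP1 and MMP3 thus lay farther apart between the experiments than the KD levels did. For MMP14 it was the other way round. Its mean in the NONO experiment was 1.47 times that in the PKM2 experiment for NC and 2.77 times for KD cells.

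Across the 12 libraries, with each experiment centred on its own mean, MMP1 and MMP3 had a Pearson r of 0.99 on log2(TMM-scaled CPM + 1). MMP14 had an r of 0.10 with MMP1 and 0.12 with MMP3. These points share their libraries and fall into NC and KD groups, and r is given as a description. Of 14522 other genes, those with the highest r to MMP3 were PKP3, SP140, POLR2D, RCC2 and VOPP1, at 0.989 to 0.991. Those nearest to MMP1 were ATF1, NUDCD3, KLHDC3, FAM3C and CTTN, at 0.997 to 0.999. None of these 5 and 5 genes was among the nearest 5 by Spearman's rho. Their fold changes were smaller than those of the member they resembled, for example log2 0.77 and 1.30 for ATF1, a CREB-family transcription factor, and 0.44 and 0.84 for CTTN, which encodes the actin-binding protein cortactin.

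The tests below concern genes that are not members, by the quasi-likelihood test of edgeR, with P values adjusted by Benjamini-Hochberg over every gene tested in the experiment. The 9 lists of related genes hold 78 genes, of which 59 were tested in the NONO and 62 in the PKM2 experiment. After NONO knockdown 19 of them were called raised and 13 lowered, together 54.2% of those tested, against 33.4% of all genes (16.2% raised and 17.2% lowered). After PKM2 knockdown 27 were called raised and 22 lowered, together 79.0%, against 68.4% of all genes (33.6% raised and 34.7% lowered). The shares over all genes stand behind the counts of each list below, and the genes were listed with earlier results known. The 32 calls after NONO knockdown became 20 without NONO KD replicate 2 or replicate 3, and 37 without NC replicate 1. The 49 after PKM2 knockdown became 51 without PKM2 KD replicate 3.

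Of the 13 other MMP genes, 6 were tested after NONO and 8 after PKM2 knockdown, and none exceeded 6.86 TPM in a library. After NONO knockdown MMP15 and MMP16 rose (MMP16 was not called without NONO KD replicate 2, edgeR adjusted P = 0.0936) and MMP17 fell. After PKM2 knockdown MMP11, MMP15, MMP17, MMP19 and MMP23B fell and none was called raised. MMP16 ended just above the threshold there (0.30 ± 0.13, edgeR adjusted P = 0.0554). Without PKM2 KD replicate 3 it was called raised (0.44, edgeR adjusted P = 0.00334). MMP15, a membrane-bound relative of MMP14, was at 4.63, 4.65 and 4.81 TPM in NC and 6.78, 6.86 and 6.48 TPM in NONO KD cells (log2 fold change 0.57 ± 0.08, edgeR adjusted P = 0.000285). It was at 5.70, 5.06 and 5.34 TPM in NC and 1.99, 2.52 and 2.07 TPM in PKM2 KD cells (-1.16 ± 0.11, edgeR adjusted P = 2.53e-06), so MMP15 moved to opposite sides as MMP14 did. The fall of MMP14 was smaller (-0.27), and was -0.05 with the GC and length trend subtracted. MMP17, which is tied to the membrane by a lipid anchor, fell in both (-0.94 ± 0.25, edgeR adjusted P = 0.0146, and -2.78 ± 0.31, edgeR adjusted P = 6.92e-06). Its first call was lost without NC replicate 2 or NONO KD replicate 2 or 3 (edgeR adjusted P = 0.0502 to 0.0657). MMP11, stromelysin-3, was 2.82-fold lower in PKM2 KD cells (edgeR adjusted P = 0.000707), and MMP23B had a log2 fold change of -1.68 ± 0.55 (edgeR adjusted P = 0.0170). The MMP23B value was -1.20 without PKM2 KD replicate 1 and -2.60 without PKM2 KD replicate 3 (edgeR adjusted P = 0.00289 for the latter). Its call was lost without PKM2 KD replicate 1 or 2 or NC replicate 2 (edgeR adjusted P = 0.0577 to 0.0624). The median log2 fold change of the tested other MMP genes was 0.01 after NONO knockdown and -1.08 after PKM2 knockdown, against -0.01 over all genes in both.

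The inhibitors did not follow a common direction. TIMP1, at 144 to 197 TPM in all libraries, was not called in either experiment (log2 fold change 0.09 ± 0.10 and 0.15 ± 0.08), and single libraries left out gave -0.02 to 0.18 and 0.08 to 0.21. Among the fits without a library, the PKM2 value of TIMP1 was called only without PKM2 KD replicate 1 (0.21, edgeR adjusted P = 0.0425). TIMP2, which also binds MMP14 at the cell surface, was at 0.02 ± 0.04 in NONO KD cells and rose by 0.60 ± 0.04 after PKM2 knockdown (edgeR adjusted P = 1.74e-07). TIMP3, which is bound to the matrix, rose from 45.9, 52.4 and 53.3 TPM to 98.3, 93.2 and 88.4 TPM in NONO KD cells (0.94 ± 0.06, edgeR adjusted P = 1.06e-06). In PKM2 KD cells the value of TIMP3 was -0.13 ± 0.05 (edgeR adjusted P = 0.0321), which was not called without NC replicate 2 or 3 or PKM2 KD replicate 1 or 2 (adjusted P = 0.0524 to 0.143). RECK, a membrane-anchored MMP inhibitor, fell in both experiments, by 0.60 ± 0.11 (edgeR adjusted P = 0.00165) and by 1.75 ± 0.12 (edgeR adjusted P = 1.30e-07). TIMP4 and A2M were below the filter in both experiments.

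**Figure D3:**
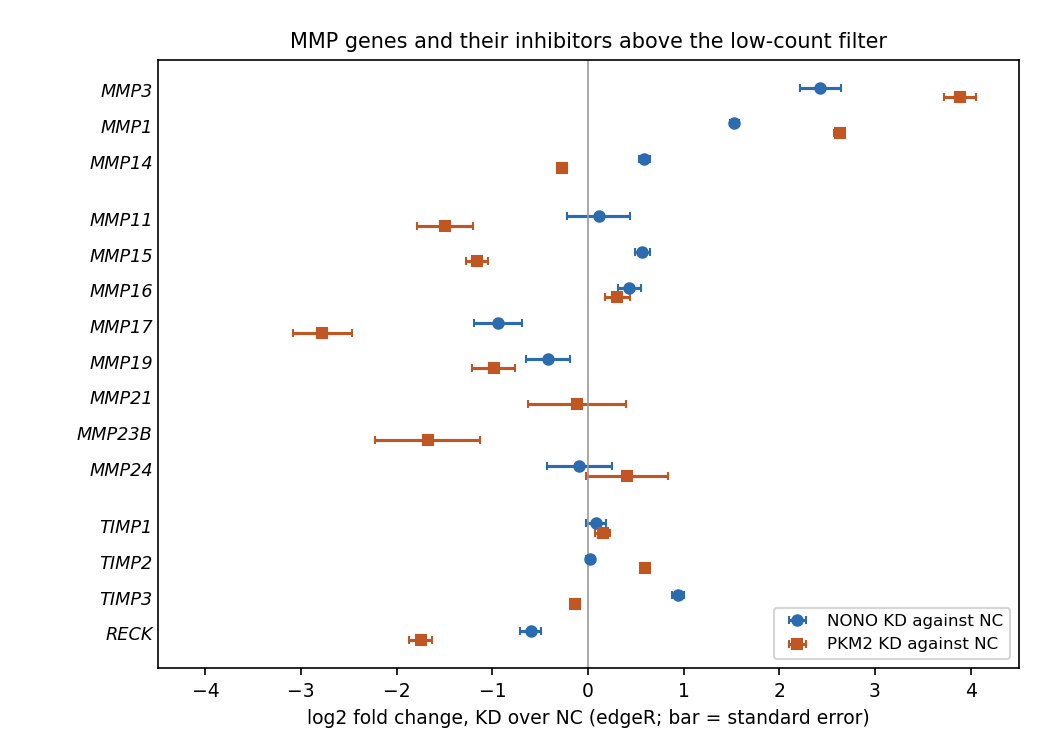
log2 fold change of KD over NC (points, with the standard error as bar) for the 3 measurable members (top), the other MMP genes that were tested (middle) and the inhibitors (bottom), with circles for NONO KD and squares for PKM2 KD. MMP3 and MMP1 lie to the right in both experiments (2.43 and 3.89, 1.53 and 2.63). MMP14, MMP15, TIMP3 and MMP11 lie to the right for NONO KD and to the left for PKM2 KD, MMP11 at 0.11 ± 0.33 for NONO KD.

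Of the 8 activators and cell-surface partners, 6 were tested, of which 2 fell and 1 rose after NONO knockdown and 4 fell and 1 rose after PKM2 knockdown. PLAU, the urokinase that makes plasmin, an activator of proMMP1 and proMMP3, fell by 1.65 ± 0.08 after PKM2 knockdown (edgeR adjusted P = 4.58e-09), from 82.6 to 103 TPM to 25.2 to 27.4 TPM. After NONO knockdown its log2 fold change was 0.15 ± 0.08 and was not called. It was 0.08 without NONO KD replicate 1 and 0.09 without NC replicate 1, and among the fits without a library it was called only without NC replicate 2 (0.23, edgeR adjusted P = 0.0469). PLAT, the tissue-type plasminogen activator, and FURIN, the convertase that activates proMMP14, fell in both experiments (-0.60 and -1.15 for PLAT, -0.21 and -0.98 for FURIN). BSG, or EMMPRIN, a surface protein known to induce MMPs, rose in both (0.43 ± 0.04 and 0.26 ± 0.05, edgeR adjusted P = 1.29e-05 and 0.000409).

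Transcription of MMP1 and MMP3 is known to respond to AP-1, ETS and NF-kappaB factors, and the subunits of these were looked up. Of the 7 AP-1 subunits, FOS alone was called after NONO knockdown (raised, and not called without NONO KD replicate 2, edgeR adjusted P = 0.0684). JUND ended just above the threshold there (-0.31 ± 0.11, edgeR adjusted P = 0.0501). It was called lowered without NC replicate 1 or 3 or NONO KD replicate 1 (edgeR adjusted P = 0.00678 to 0.0327). After PKM2 knockdown FOSB, FOSL2, JUN, JUNB and JUND rose and FOSL1 fell, JUND not being called without NC replicate 1 or 2 (edgeR adjusted P = 0.0526 to 0.0729). FOSB was low, at 0.42 to 0.65 TPM in NC and 0.91 to 1.16 TPM in PKM2 KD cells. FOSL1 was at 591 to 613 TPM in NC and 126 to 134 TPM in PKM2 KD cells (-2.17 ± 0.04, edgeR adjusted P = 3.75e-11), and at 590 to 606 TPM in both NC and NONO KD cells (0.06 ± 0.04). FOSL2 and JUNB had log2 fold changes of 0.93 ± 0.08 and 0.89 ± 0.11 in PKM2 KD cells.

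The promoter table from RefSeq (GRCh38.p14) held 4 members, MMP7, MMP8, MMP10 and MMP14, and of the 250 bases before the start the 100 nearest to it are shown for the 2 with an AP-1 word. The capitals mark the AP-1 word TGANTCA, which reads alike on both strands by its fixed letters, and the TATAAA word.
MMP7, chr11:102530748-102530847, minus strand: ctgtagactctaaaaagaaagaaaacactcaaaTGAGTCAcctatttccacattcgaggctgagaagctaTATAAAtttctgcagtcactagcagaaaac
MMP10, chr11:102780629-102780728, minus strand: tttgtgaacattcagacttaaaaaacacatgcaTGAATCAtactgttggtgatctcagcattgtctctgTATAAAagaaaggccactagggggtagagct

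In both the AP-1 word starts 67 bases before the start of the gene, and 6.57% of 35116 promoters hold it in these 250 bases. MMP8 and MMP14 had no AP-1 word there. TATAAA was found in MMP7, MMP8 and MMP10, as in 10.7% of all promoters, and not in MMP14, whose 250 bases hold 56.8% GC against 33.6% to 36.4% in the other 3. Promoters of MMP1, MMP3, MMP12, MMP13, MMP2 and MMP9 were not analysed here.

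Of the 8 ETS factors, ETS1 and ELF3 rose and ETV5 fell after NONO knockdown, ETS1 not being called without NONO KD replicate 3 and ETV5 without replicate 1 (edgeR adjusted P = 0.0584 and 0.0600), and 5 rose and 1 fell after PKM2 knockdown. ELK3, a repressor of the ETS family, fell by 2.26 ± 0.08 in PKM2 KD cells (edgeR adjusted P = 8.89e-10), and its log2 fold change was 0.01 ± 0.04 in NONO KD cells. ETS2 rose by 1.27 ± 0.11 and ELK1 by 0.68 ± 0.06 in PKM2 KD cells. ELF3, an epithelial ETS factor, rose in both (1.10 ± 0.34 and 1.21 ± 0.30), the first of which ended just above the threshold without NC replicate 3 and was not called without any 1 NONO KD library (edgeR adjusted P = 0.0509 to 0.114).

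Of the 8 other regulators, 5 rose and 1 fell after NONO knockdown, and 7 rose and 1 fell after PKM2 knockdown. RELA, RELB and NFKB1, subunits of NF-kappaB, rose in both experiments, by log2 0.13 to 0.49. The NONO call of RELA was lost without any 1 library but NC replicate 1, and that of RELB without NC replicate 3 or NONO KD replicate 1 or 2 (edgeR adjusted P = 0.0557 to 0.196 for both). NFKB2, the other subunit looked up, fell in PKM2 KD cells (-0.28 ± 0.05, edgeR adjusted P = 0.000408) and was not called in NONO KD cells (0.06 ± 0.07). STAT3 rose in both as well (0.46 ± 0.04 and 1.00 ± 0.05, edgeR adjusted P = 1.48e-05 and 1.60e-08). CEBPB, a factor of inflammatory genes, fell by 1.35 ± 0.20 in NONO KD cells and rose by 0.75 ± 0.06 in PKM2 KD cells. RUNX1 rose in PKM2 KD cells (0.78 ± 0.06), and RUNX2 in both (0.29 ± 0.10 and 0.60 ± 0.08). The first RUNX2 value was 0.18 without NC replicate 1, and was not called without NC replicate 3 or any 1 NONO KD library (edgeR adjusted P = 0.0694 to 0.172).

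The ligands and receptors that induce MMP1 and MMP3 moved to both sides. Of the 13, 10 were tested in the NONO experiment, with 1 raised and 5 lowered, and 11 in the PKM2 experiment, with 3 raised and 4 lowered. IL1B, a cytokine known to induce MMP1 and MMP3, was at 261, 511 and 460 TPM in NC and 246, 264 and 209 TPM in NONO KD cells (-0.73 ± 0.18, edgeR adjusted P = 0.0102, and 0.0571 without NONO KD replicate 3). It was at 280, 404 and 320 TPM in NC and 92.7, 69.0 and 60.3 TPM in PKM2 KD cells (-2.07 ± 0.13, edgeR adjusted P = 7.52e-08). AREG, an EGFR ligand, rose in both (1.05 ± 0.18 and 1.03 ± 0.16), EREG rose by 1.88 ± 0.46 in PKM2 KD cells from levels below 1 TPM, and HBEGF fell in both (-0.19 ± 0.05 and -0.90 ± 0.09). The first HBEGF value was not called without NC replicate 2 or 3 or NONO KD replicate 1 or 3 (edgeR adjusted P = 0.0601 to 0.0916).

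Of the 8 matrix substrates, 4 were tested. FN1, fibronectin, a substrate of MMP3, fell by 1.70 ± 0.09 in PKM2 KD cells (edgeR adjusted P = 1.51e-08), and its log2 fold change was 0.17 ± 0.08 in NONO KD cells. COL1A1, a chain of the collagen that MMP1 cuts, fell by 0.72 ± 0.14 and rose by 0.34 ± 0.09. COL4A1 rose (0.19 ± 0.05 and 1.28 ± 0.06) and COL4A2 fell (-0.16 ± 0.05 and -0.40 ± 0.05) in both. The NONO calls were lost without NONO KD replicate 1 or 2 for COL4A1, and for COL4A2 without any 1 library but NC replicate 1 (edgeR adjusted P = 0.0550 to 0.0863 for both).

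Of 7 neighbours of the cluster on 11q22, 6 were tested. After NONO knockdown 5 of them were called raised and 0 lowered, and after PKM2 knockdown 3 were raised and 2 lowered. YAP1 (0.41 ± 0.04 and 0.65 ± 0.06), BIRC3 (0.25 ± 0.07 and 0.63 ± 0.10) and DCUN1D5 rose in both, the NONO call of BIRC3 being lost without any 1 NONO KD library (edgeR adjusted P = 0.0547 to 0.0862) and that of DCUN1D5 without any 1 library but NC replicate 1 (edgeR adjusted P = 0.0561 to 0.157). TMEM123 and DYNC2H1 rose after NONO knockdown (0.17 ± 0.04 and 0.31 ± 0.06) and fell after PKM2 knockdown (-1.74 ± 0.05 and -1.22 ± 0.12), and without NONO KD replicate 3 the first of these was not called (TMEM123, edgeR adjusted P = 0.0504).

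**Figure D4:**
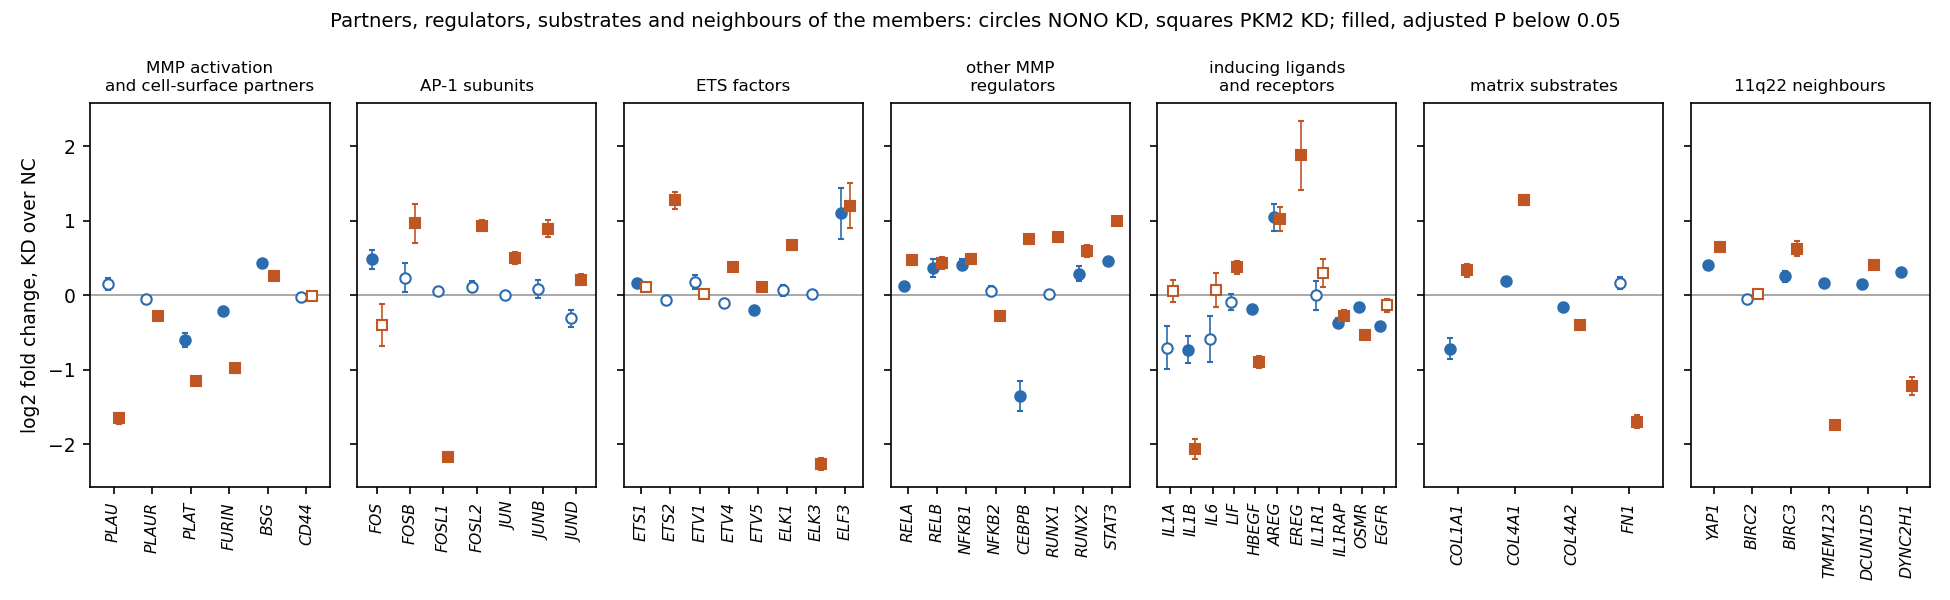
log2 fold change of KD over NC (points, standard error as bar) for the tested genes of the other 7 lists, with circles for NONO KD, squares for PKM2 KD and filled symbols for an adjusted P below 0.05. FOSL1 (-2.17), ELK3 (-2.26), IL1B (-2.07), TMEM123 (-1.74) and FN1 (-1.70) lie lowest in PKM2 KD cells.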

How the data were processed

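Total RNA of MDA-MB-231 cells was selected for poly(A), and 12 libraries were sequenced as read pairs of 150 bases. The authors deposited 1 table per experiment with estimated counts and TPM per gene and library. The submitters' processing notes name fastp, HISAT2, StringTie, RSEM, DESeq2, edgeR, limma and hg19; versions and strand settings are not given in the sources used here. Columns of the authors' own comparisons (fold changes and P values) were not used.

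The deposited estimated counts were rounded and tested per experiment (6 libraries) with edgeR 4.0.16 (quasi-likelihood, TMM, filterByExpr, Benjamini-Hochberg, threshold 0.05), and the difference between the knockdowns in all 12. The study's own cutoff (fold change above 2, P below 0.05) was an alternative, as were DESeq2 1.42.0, RLE size factors, no filter, limma 3.58.1 on log2(TPM + 1) and log2(TPM + 0.1), a replicate block, each library left out, and subtraction of a length trend. A GC and length trend (20 bins each, GC known for 98.8% of genes or more) was added after the data were seen. Levels of different genes were compared only as the deposited TPM, which keeps no depth. The fitting script was tested on simulated counts.

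The members and the gene lists were chosen with earlier results of these data known. Named genes were the 10 members, TIMP1, TIMP2, TIMP3 and RECK, at most 4 called genes per list with the largest change, and the 5 genes most like MMP3 and MMP1. Other genes named as called were given to complete small counts.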

Additional observations from a re-analysis of the deposited data

Results flagged for a closer look

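MMP14 was flagged because all 3 NONO KD libraries were above and all 3 PKM2 KD libraries below their NC libraries. With the GC and length trend subtracted, its log2 fold change after PKM2 knockdown was -0.05. The difference of its log2 fold changes (PKM2 minus NONO) was -0.87; it was not tested, since MMP14 was chosen with these contrasts in view.

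The same difference was tested by edgeR over all genes with 12 libraries for 40 named genes, other MMP genes and inhibitors, and 30 were flagged at an adjusted P below 0.05. Over all 15995 genes the share was 53.1%, but most of the 40 were named for their large changes, so nothing is read from their number. For 18 it was below 0. Among MMP genes it was -1.62 for MMP11, -1.75 for MMP15, -1.85 for MMP17 and -2.05 for MMP23B (edgeR adjusted P = 0.0484). Among inhibitors it was 0.56 for TIMP2, -1.09 for TIMP3 and -1.16 for RECK. Among activators and partners it was -1.82 for PLAU, -0.57 for PLAT, -0.79 for FURIN and -0.18 for BSG.

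Among the transcription factors, FOSL1 had a difference of -2.24 (edgeR adjusted P = 1.48e-14) and ELK3 of -2.29 (edgeR adjusted P = 5.54e-12). Those above 0 were 2.09 for CEBPB (edgeR adjusted P = 8.48e-07), 1.33 for ETS2, 0.80 for FOSL2, 0.79 for JUNB, 0.75 for RUNX1, 0.60 for ELK1 and 0.52 for STAT3. For the ligands it was -1.36 for IL1B and -0.72 for HBEGF, and for the substrates -1.88 for FN1, -0.25 for COL4A2, 1.04 for COL1A1 and 1.085 for COL4A1. For the 11q22 neighbours it was -1.92 for TMEM123, -1.55 for DYNC2H1, 0.23 for YAP1 and 0.36 for BIRC3. AREG and ELF3, raised in both experiments, had differences of -0.03 ± 0.23 and 0.09 ± 0.48 (standard error) that were not called.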

How the results depend on the processing

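MMP1 and MMP3 were higher in both experiments under every alternative run. Single libraries left out gave 1.85 to 2.10 and 3.14 to 3.39 for the median of the chromosome 11 members, and 0.54 to 0.63 and -0.29 to -0.25 for MMP14. Fits without a filter admitted members of at most 8 counts (3 and 4 chromosome 11 members, 3 and 2 of MMP2, MMP9 and MMP14), which by construction pulled the medians. The chromosome 11 median was then 1.53 and 2.09 by edgeR, 1.45 and 1.21 on log2(TPM + 1), and 1.47 and 1.12 on log2(TPM + 0.1). That of MMP2, MMP9 and MMP14 was -1.02 after PKM2 knockdown by edgeR, 0.0095 after NONO knockdown on log2(TPM + 1), and 0.088 and -0.39 on log2(TPM + 0.1). MMP14 alone was at 0.45 and -0.47 on log2(TPM + 1), and at -0.050 after PKM2 knockdown with the GC and length trend subtracted. The subtraction gives no standard error of its own, and that of the main fit was 0.046.

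Genes called after NONO knockdown numbered 4954, and 2645 (log2(TPM + 1)) or 2657 (log2(TPM + 0.1)) by limma with a mean TPM of at least 1, 1699 and 1879 without that filter, 437 by the fold change and P cutoff, and 3554 to 6249 with single libraries left out. That cutoff gave 3234 in place of 10614 after PKM2 knockdown and 2899 in place of 8497 for the difference. Single libraries left out gave 9891 to 10863 and 7969 to 8526 there, and 20 to 37 and 46 to 51 genes called on the lists. DESeq2, RLE size factors and no filter kept the counts over all genes within 1.5 times. The genes most like MMP1 and MMP3 by Pearson shared 0 of 5 with those by Spearman.

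Same-numbered NC and KD libraries did not deviate together over the genes tested (r = -0.12, 0.05 and -0.06 in the NONO and -0.07, 0.00033 and 0.04 in the PKM2 experiment). These values do not settle whether same-numbered libraries were prepared together, and MMP3 was highest in replicate 1 of every group. With the replicate block 4351, 10525 and 8239 genes were called, 30 and 48 on the lists, and MMP3 was at 2.42 and 3.90. The block ended the PKM2 calls of TIMP3 (adjusted P = 0.0534) and ETV5 and the NONO calls of RELA, RELB and DCUN1D5 (adjusted P = 0.0612 to 0.0889), and made calls of TIMP1 (PKM2, adjusted P = 0.0364) and JUND (NONO). Of 94 named gene and experiment pairs, 67 had the same call under every count-based alternative. DESeq2 ended the calls of HBEGF, DCUN1D5 and RELA (NONO), MMP23B and TIMP3 (PKM2); without the filter TIMP3, ETV5 (PKM2) and RELA (NONO) lost their calls and FN1, PLAU, JUND (NONO), MMP16 and TIMP1 (PKM2) gained one; DESeq2 added JUND (NONO) and ETS1 (PKM2), and RLE size factors ETS1 and MMP16 (PKM2). The others changed only with libraries left out. Levels below 3 counts per library cannot be told from 0.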
